A study of Canis lupus familiaris with 21 samples.

Results

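The major histocompatibility complex (MHC) and antigen presentation genes were followed in prefrontal cortex and in plasma extracellular vesicles (EVs, small membrane particles that cells shed) in pet dogs. They were taken by symbol: B2M, CD74, TAP1, TAP2, TAPBP, CIITA, NLRC5 and every gene whose symbol begins with DLA, the dog's name for its MHC. This gave 17 of the 34981 genes of each table. One of the 17 is DLAT, which encodes a subunit of pyruvate dehydrogenase and shares only its first letters with the DLA genes. Counts below are therefore over the other 16 genes, a choice made after values had been seen, and DLAT is given apart. HLA-DRB1, under which symbol the files list the dog's DRB chain, was not taken by the symbols and is also given apart. Other genes of the dog MHC were not followed as a set. Any that appear below do so as pathway genes or as genes most like B2M or CD74.

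MHC class I molecules show peptides from inside a cell to CD8 T cells. Each has a heavy chain (DLA88, the main classical class I gene of dogs, written DLA-88 elsewhere, and the further genes DLA-12, DLA-64 and DLA-79) and the light chain B2M. TAP1 and TAP2 together pump peptides into the endoplasmic reticulum, and TAPBP (tapasin) holds the empty class I molecule at the pump. Class II molecules show peptides from engulfed material to CD4 T cells: DLA-DRA is a chain of the molecule, CD74 (the invariant chain) guards its groove, DLA-DMA and DLA-DMB exchange CD74's remnant for peptide, and DLA-DOA and DLA-DOB restrain that exchange. CIITA switches class II genes on and NLRC5 class I genes. In brain, microglia and the macrophages of its borders are the cells best known for class II, and neurons carry little MHC.

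The dogs were labelled young, old, or with canine cognitive dysfunction (CCD), the dementia of older dogs, which is compared with Alzheimer's disease. In cortex each group had 3 libraries of polyadenylated RNA, and in EVs it had 4 libraries of total RNA depleted of ribosomal RNA. Libraries are named by their label, such as cortex_353. The labels used here give no age, sex or breed and leave unsaid whether every number stands for its own dog, so p-values measure the spread between these libraries. Cortex libraries held 14.9 to 31.4 M reads, of which 92.1% to 95.8% lay in genes, and the CCD libraries were the shallowest at 14.9, 18.3 and 18.9 M. EV libraries held 27.5 to 45 M reads, of which only 15.8% to 25.1% lay in genes. Reads here are those counted in genes or in families of repeated sequence, so the rest lay in such families. Neuron markers summed to 97190 or more normalised counts and astrocyte markers to 53904 or more in every cortex library, as the label of the tissue has it. Young cortex_353, young cortex_377 and CCD cortex_358 stood apart: their summed fibroblast and meningeal markers were 41538, 26693 and 20575 normalised counts, against 298 to 1581 in the other 6. Because of this, results in cortex are also given without these libraries, an alternative added after seeing the data that leaves a single young library.

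In cortex the 16 genes took 0.0528% to 0.197% of a library's gene reads. The share was 0.066%, 0.121% and 0.197% in young libraries, 0.0528%, 0.0603% and 0.0606% in old ones, and 0.0752%, 0.104% and 0.148% in CCD ones. Every old library thus lay below every young and every CCD library. Levels are normalised counts (reads scaled by the authors to a common library total). That total includes the reads in repeat families, which in EVs are most of it. Levels are not divided by gene length, so they can be set against each other between libraries but not between genes. These are whole pieces of tissue, in which more cells of a type and more RNA per cell cannot be told apart.

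Among the class I heavy chains, DLA88 was at 4111, 10362 and 1799.6 normalised counts in young cortex_270, cortex_353 and cortex_377. It was at 1723, 1814 and 1079.5 in the old libraries cortex_250, cortex_253 and cortex_264. In CCD it was at 3988, 3085 and 7261 in cortex_163, cortex_354 and cortex_358. All 3 CCD libraries lay above all 3 old ones, while young cortex_377 lay just inside the range of the old libraries. DLA-12 was at 2304 to 6209 in young, 1664 to 2416 in old and 2094 to 5327 in CCD cortex. DLA-64 was at 1769.5 to 5303, 1650.1 to 2226 and 2334 to 5185, so that for it too every CCD library lay above every old one. DLA-79 did not share this order, with 394 to 868 in young, 825 to 949 in old and 506 to 1677 in CCD cortex. In the RefSeq table DLA-79 lies between olfactory receptor genes, away from the other DLA genes. The heavy chain genes are related in sequence, though how closely was not looked at here. How reads that fit more than one of them were counted is not given in the sources used here, so their separate levels are uncertain.

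The light chain B2M was at 2419.7, 4048 and 1783 normalised counts in young cortex_270, cortex_353 and cortex_377. Old libraries lay close together at 1564, 1465 and 1481, with a mean of 1504 ± 53.2 (SD, n = 3). CCD libraries were at 1073 in cortex_163, 1941 in cortex_354 and 3523 in cortex_358, and so lay on both sides of the old ones. B2M pairs with all of the heavy chains, but its level did not follow DLA88 in every library: DLA88 over B2M was 3.72 in cortex_163, where B2M was lowest of all 9 libraries, and 0.729 to 2.56 in the other 8.

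The genes of the peptide pump, TAP1 and TAP2, did not share an order of groups. TAP2 was at 545, 396 and 674 normalised counts in CCD cortex_163, cortex_354 and cortex_358. It was at 929.6, 779.8 and 925 in old and at 1014, 839 and 1136 in young cortex. All CCD libraries lay below all others. TAP1 was at 699 to 1160.4 in CCD, 617 to 777 in old and 657 to 879.8 in young cortex, and overlapped between all groups. TAPBP ranged from 771 to 1366 in CCD, from 914 to 1005 in old and from 1093 to 1502 in young cortex, with every old library below every young one.

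**Figure D1:**
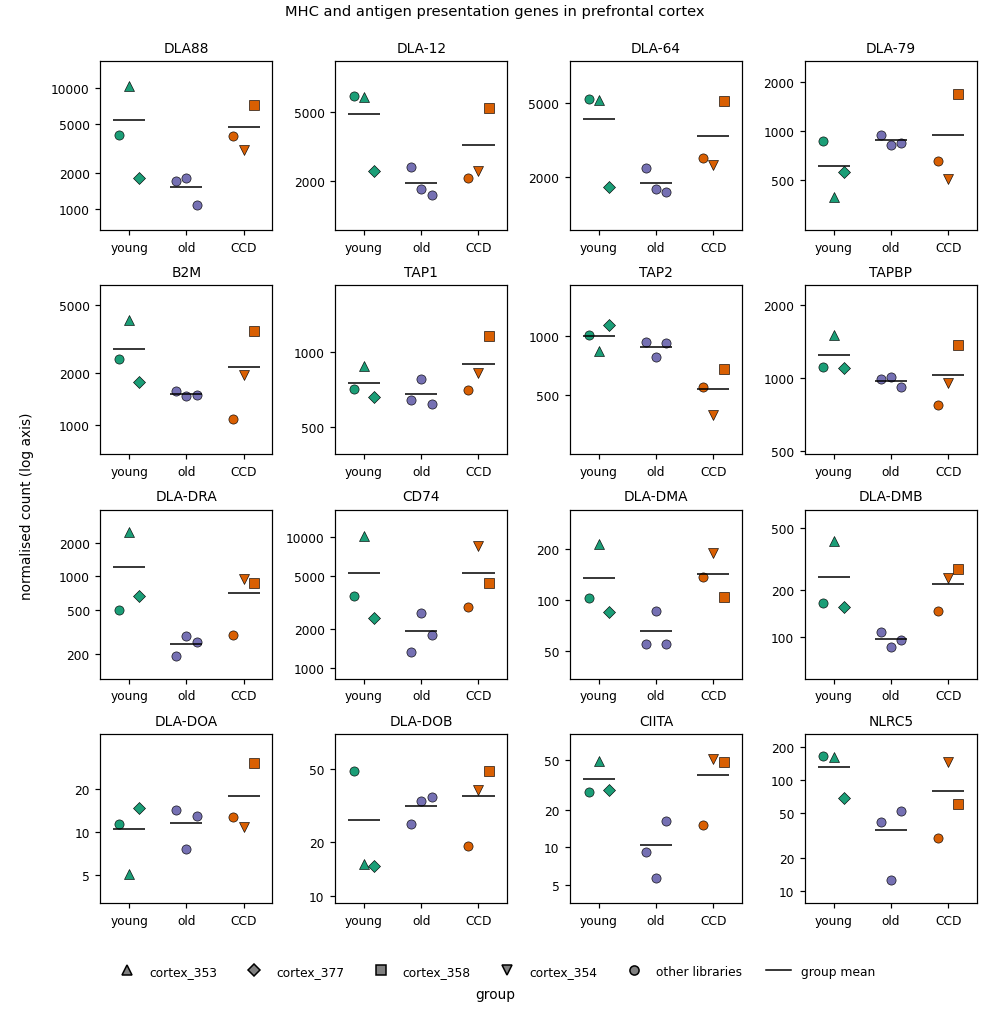
Normalised count (log axis) of each of the 16 genes in the 9 cortex libraries, by group; each point is a library, the line is the group mean, and the marked libraries are cortex_353, cortex_377, cortex_358 and cortex_354. Young cortex_353 is the highest library for DLA88, B2M, DLA-DRA, CD74, DLA-DMA and DLA-DMB, and for TAP2 all 3 CCD points lie below all others.

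Of the class II genes, CD74 was at 3568, 10049 and 2429.8 normalised counts in young cortex_270, cortex_353 and cortex_377. It was at 1336, 2621 and 1809 in old cortex_250, cortex_253 and cortex_264, and at 2915, 8477 and 4478 in CCD cortex_163, cortex_354 and cortex_358. Every CCD library lay above every old one, and young and CCD libraries overlapped over most of their range. DLA-DRA was at 498, 2502 and 658 in the same young libraries. It was at 189.6, 291 and 256 in the old ones and at 295, 942 and 862 in the CCD ones, where CCD cortex_163 was barely above the highest old library. HLA-DRB1, its partner chain, was at 768 to 2999 in young, 296 to 527 in old and 561 to 1753 in CCD cortex. The peptide exchangers also had their lowest means in old cortex. DLA-DMA was at 85.1 to 212 in young, 54.8 to 85.7 in old and 104 to 187 in CCD cortex. Its old and young libraries overlapped, and its mean was highest in CCD. DLA-DMB was at 156 to 408 in young, 86.6 to 107 in old and 147 to 272 in CCD cortex. The restraining pair did not have its lowest means in old cortex. DLA-DOA rested on 5 to 25 reads a library, with 5.04 to 14.7 normalised counts in young, 7.62 to 14.2 in old and 10.8 to 30.5 in CCD cortex, and DLA-DOB was at 14.7 to 48.6, 25.1 to 35.1 and 18.9 to 48.8.

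The activators were low in cortex. CIITA was at 27.9, 49.4 and 28.6 normalised counts in young cortex_270, cortex_353 and cortex_377, at 9.19, 5.71 and 16.3 in old cortex_250, cortex_253 and cortex_264, and at 15.1, 50.9 and 48.8 in CCD cortex_163, cortex_354 and cortex_358. Every old library lay below every young one, and CCD cortex_163 lay inside the old range. These values rest on 6 to 49 reads a library. NLRC5 was at 69 to 164 in young, at 41.8, 12.4 and 52.3 in old and at 30.2, 146 and 60.9 in CCD cortex, again with every old library below every young one.

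The first comparison asked how the cortex of CCD dogs differs from that of old dogs without the label. DLA88, the class II genes DLA-DRA, CD74, DLA-DMA and DLA-DMB and the activator CIITA had higher mean levels in CCD, at 2.15 to 3.28 times the old level on the scale of the fit, and TAP2 a lower one at 0.602 times. None of the 16 genes passed limma's test after Benjamini-Hochberg adjustment over all 19010 genes tested, where 0% passed, and the smallest adjusted p among them was 0.29. Of the 16, 6 were higher with an unadjusted p under 0.05 and 1 lower, beside 758 higher and 2057 lower of all genes. The log2 fold change (CCD minus old, with the standard error of the fit) was 1.58 ± 0.54 for DLA88, 1.71 ± 0.63 for CIITA and 1.38 ± 0.51 for CD74. DLA-DRA had 1.36 ± 0.59 with an adjusted p of 0.325, and DLA-DMB and DLA-DMA had 1.13 ± 0.40 and 1.10 ± 0.42. TAP2 had -0.73 ± 0.23 with an adjusted p of 0.29, and B2M only 0.37 ± 0.40 with an adjusted p of 0.656.

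In that comparison the median log2 fold change of the 16 was 0.68, against -0.10 for all genes, and 14 were positive where 42.9% of all genes were. For 6 of the 16 every CCD library lay above every old one, and for 1, TAP2, below; over all genes 11.9% lay above and 22.6% below. Without CCD cortex_358, which had the highest B2M and DLA88 of its group, the median fell to 0.29 and B2M turned to -0.06. The test depended on how the spread was estimated, and edgeR and DESeq2 called 0 of the 16, where they called 0 and 160 of all genes. With the compared groups fitted alone, DLA88, CD74 and DLA-DMB passed with adjusted p of 0.022, 0.0475 and 0.0451, beside 9.35% of all genes. With library weights 5 passed, these 3 with TAP2 and DLA-DMA, beside 8.58% of all genes. DLAT had -0.60 ± 0.26 and HLA-DRB1 1.51 ± 0.53, with adjusted p of 0.33 and 0.29.

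The second comparison set old against young cortex, and it shares its old libraries with the first. Here 13 of the 16 genes had a negative log2 fold change (old minus young) and 3 a positive one, DLA-79, DLA-DOA and DLA-DOB, with a median of -0.96 against 0.03 for all genes. Old libraries had lower mean levels of DLA-DRA, CD74, DLA-DMA and DLA-DMB, of both activators and of 3 of the heavy chains. limma called 0 of the 16 (smallest adjusted p 0.517) and 0% of all genes, while 9 of the 16 had an unadjusted p under 0.05, all lower, beside 740 lower and 542 higher of all genes. DLA-DRA had -1.95 ± 0.59, NLRC5 -1.99 ± 0.68 with an adjusted p of 0.58, and CIITA -1.73 ± 0.63 with an adjusted p of 0.617. DLA88 had -1.50 ± 0.54 and DLA-12 -1.20 ± 0.43. CD74 had -1.26 ± 0.51, DLA-DMB -1.18 ± 0.40, DLA-64 -0.99 ± 0.42 and DLA-DMA -0.94 ± 0.42. B2M had -0.79 ± 0.40 with an adjusted p of 0.769, and HLA-DRB1 -1.78 ± 0.53 with one of 0.512.

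For 6 of the 16 every old library lay below every young one (B2M, TAPBP, DLA-DRA, DLA-DMB, CIITA and NLRC5) and for 0 above, against 5.65% and 6.56% of all genes. DESeq2 called DLA-DRA and DLA88, at adjusted p of 0.00951 and 0.0351, beside 1.19% of all genes, and edgeR called 0 of the 16 and 0 of all genes. The size of this difference depended on single libraries. Without young cortex_353 the median of the 16 was -0.61, DLA88 -0.86, DLA-DRA -1.24 and CD74 -0.67 on the log2 scale. With other libraries left out singly these reached -1.31, -2.12, -2.40 and -1.69.

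The third comparison set CCD against young cortex. Of the 16 genes, 7 had a positive and 9 a negative log2 fold change (CCD minus young), with a median of -0.03 against -0.09 for all genes. TAP2 was at 0.532 times the young level, with a log2 fold change of -0.91 ± 0.23 and an adjusted p of 0.363. NLRC5 had the same difference with a larger error, -0.91 ± 0.68, and overlapping groups. TAP2 was the only one of the 16 with an unadjusted p under 0.05, lower in CCD, beside 1661 lower and 786 higher of all genes, and the only one whose groups did not overlap. Over all genes 8.22% lay below and 5.28% above without overlap. limma called 0 of the 16 and 0% of all genes, edgeR called 0 and 0, and DESeq2 called 0 of the 16 and 208 of all genes. DLA88 had 0.07 ± 0.54, CD74 0.12 ± 0.51, CIITA -0.02 ± 0.63, B2M -0.42 ± 0.40 and DLA-DRA -0.59 ± 0.59. Each of these 5 changed its sign under an alternative.

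**Figure D2:**
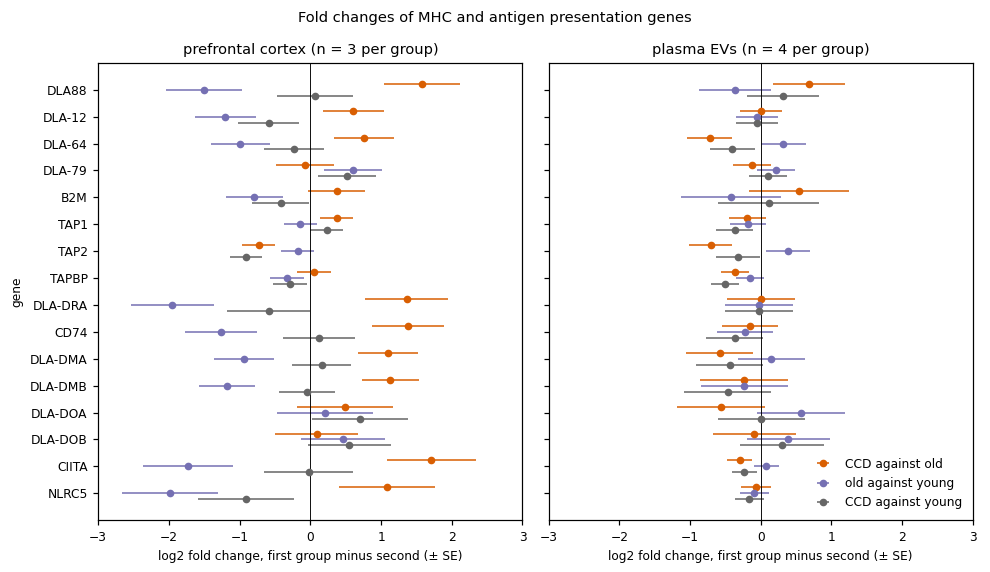
Log2 fold change of the 16 genes (first group minus second, bars ± SE of the limma fit) in cortex, left, and plasma EVs, right, for the 3 comparisons. In cortex 14 genes are positive for CCD against old and 13 negative for old against young, comparisons that share the old libraries; TAP2 is negative in all 3, and in EVs most values lie near 0.

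Levels of other cell types' markers moved with some of these values. The summed fibroblast and meningeal markers ran from 298 to 41538 normalised counts in young, up to 1035 in old and from 634 to 20575 in CCD cortex, with none of the 8 markers at 0 in any group. All 8 had a positive log2 fold change in CCD against old and all 8 a negative one in old against young. The 5 border macrophage markers followed, at 2184 to 2466 in cortex_353, cortex_377 and cortex_358 and at 200.4 to 446 in the other 6. Summed endothelial markers were 4384 to 9613 in young, 3238 to 6322 in old and 3104 to 9993 in CCD cortex, highest in cortex_358 and cortex_353. All 6 were negative in old against young, with a median of -0.94 against 0.03 for all genes. In CCD against old 3 were positive and 3 negative. Summed microglia markers were 7617 to 17529 in young, 4952 to 8413 in old and 5810 to 10658 in CCD cortex, and 12 of 12 were negative in old against young with a median of -0.84 against 0.03 for all genes. In CCD against old 11 of the 12 were positive, with a median of 0.26 against -0.10 for all genes. Summed neuron markers were 97190 to 147803 in young, 141152 to 143880 in old and 106477 to 120579 in CCD cortex, so that every CCD library lay below every old one. Of the 5 neuron markers 4 were lower in CCD against old with an unadjusted p under 0.05, and their median was -0.96. Summed astrocyte markers were 82319 to 91908 in young, 53904 to 68892 in old and 67972 to 71724 in CCD cortex, with every old library below every young one. Summed T cell markers were low, at 108 to 271 in young, 40.9 to 73.3 in old and 75.6 to 327 in CCD cortex, highest in cortex_354. CD3D was at 0 in every old library, and CD3E at 0 in CCD cortex_163 and 1.03 in young cortex_270. Only 3 of the 6 T cell markers could be tested. In old against young 2 were positive and 1 negative, with a median of 0.21 against 0.03 for all genes. In CCD against old all 3 were positive. Summed B cell markers were 107 to 249 in young, 119 to 149.5 in old and 161 to 206 in CCD cortex. Summed dendritic cell markers went the other way between old and CCD, at 424 to 588, 500.3 to 509 and 363 to 459.5. Of the 6 neutrophil and monocyte markers tested in CCD against old, 5 were negative and 1 positive, with a median of -1.38. The part of any of these in the levels of the MHC genes was not tested.

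**Figure D3:**
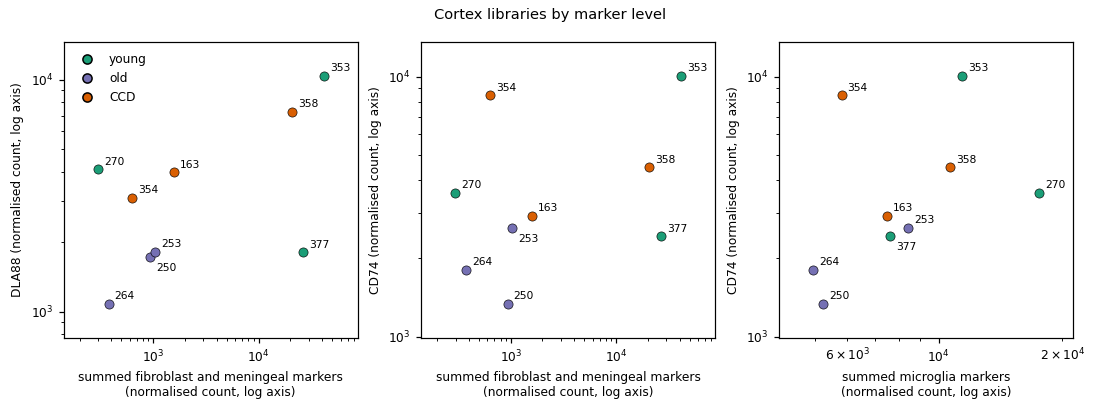
DLA88 and CD74 (normalised count, log axes) against the summed fibroblast and meningeal markers, left and middle, and CD74 against the summed microglia markers, right, for the 9 cortex libraries, labelled by number and coloured by group. Young cortex_377 has 26693 of the fibroblast and meningeal sum with 2429.8 of CD74, while CCD cortex_354 has 634 and 8477.

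The libraries with high fibroblast and meningeal sums had high and low MHC levels. Cortex_353 and cortex_358, with 41538 and 20575, had the highest DLA88 values of the 9 libraries, 10362 and 7261, and cortex_353 also had the highest CD74 and B2M. Cortex_377, with the second highest fibroblast and meningeal sum, had DLA88 at 1799.6 and CD74 at 2429.8, the lowest young levels. CCD cortex_354 had the lowest such sum of its group and the group's highest CD74, DLA-DRA, DLA-DMA, CIITA and NLRC5. It also had the group's lowest DLA88, DLA-64, DLA-79, TAP2 and DLA-DOA, at 3085, 2334, 506, 396 and 10.8. Without cortex_353, cortex_377 and cortex_358 the fit of CCD against old called DLA88 (1.23 ± 0.23, adjusted p 0.0137), TAP2 (-0.91 ± 0.19, 0.0187), DLA-DMA (1.31 ± 0.35, 0.0388) and CD74 (1.43 ± 0.41, 0.0474), with 15.4% of all genes, while the median of the 16 was 0.29. The same fit of old against young rests on the 1 young library left, cortex_270, assumed to vary like the others. It called DLA-12, DLA-64 and DLA88 lower, at -1.68 ± 0.23, -1.52 ± 0.21 and -1.45 ± 0.29, with 3.25% of all genes. CCD against that library called DLA-12 and DLA-64 lower, at -1.50 ± 0.24 and -1.13 ± 0.22, with 3.4% of all genes.

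Of 53 further genes of the pathway, 48 could be tested in cortex and limma called 0 in any comparison. In CCD against old 5 had an unadjusted p under 0.05 and were higher and 5 were lower, beside 758 higher and 2057 lower of the 19010 genes tested, with a median of -0.07 over the 48 against -0.10 for all genes. The 5 immunoproteasome genes, which shape peptides for class I, were all positive with a median of 0.56. Every other list held both signs. Of the 8 genes of class I loading and folding 6 were negative, with a median of -0.22. Of the 11 of MHC transcription 8 were negative, with a median of -0.17. Of the 6 of costimulation and checkpoint 4 were positive, with a median of 0.25. PSMB8 and PSMB9, which lie beside TAP1 in the RefSeq table, had 1.25 ± 0.43 and 1.24 ± 0.48. PSMB8 was at 210.0 ± 32.3 normalised counts in CCD against 89.6 ± 25.7 in old cortex (SD, n = 3). TAPBPL, a relative of tapasin that edits class I peptides, had 1.19 ± 0.39. NFYA, a subunit of a factor that binds class II promoters, had -0.92 ± 0.27, the kinase JAK2 of the interferon receptor -1.24 ± 0.46 and the lysosomal protease cathepsin B (CTSB) -0.57 ± 0.23. Adjusted p-values were 0.29 to 0.308 for these 6.

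In old against young cortex 11 of the 48 had an unadjusted p under 0.05, all lower, beside 740 lower and 542 higher of the 19010 genes tested. Of the 48, 36 were negative and 12 positive, where 53.9% of all genes were positive. Cathepsin S (CTSS), which trims CD74, had -1.30 ± 0.33, from 675 ± 284 in young to 260.2 ± 24 in old, and the protease LGMN -1.21 ± 0.41. ICOSLG, a costimulatory ligand, had -1.63 ± 0.41, the CD8 chain CD8B -1.81 ± 0.54, the interferon signalling inhibitor SOCS1 -2.10 ± 0.66 and the chaperone HSPA5 -0.75 ± 0.22, all with adjusted p of 0.461 to 0.561. In CCD against young 2 were higher and 9 lower by the same rule, beside 786 higher and 1661 lower of all genes. NFYA had -1.38 ± 0.27, HSPA5 -0.88 ± 0.22, JAK2 -1.60 ± 0.46, CTSB -0.79 ± 0.23 and the class I chaperone CALR -0.62 ± 0.20, each with an adjusted p of 0.363.

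The genes most like B2M and CD74 over the 9 cortex libraries were ranked by Pearson's r of log2 levels, as a description of libraries that share groups and marker levels. For B2M the first of 19009 was TAPBP with 0.95, followed by DCTD (0.949), VASP (0.933), SIGIRR (0.931), CFB (0.927) and NEU1 (0.926). DLA-12 ranked 51, with r of 0.87, and DLA-79, TAP2, DLA-DOA and DLA-DOB had r of 0.02, 0.11, -0.02 and 0.13. For CD74 the first was HLA-DRB1 with 0.969, followed by ADAM8 (0.938), and DLA-DMA, DLA-DRA and DLA-DMB ranked 3, 18 and 35. PTPRU (0.935), TBXAS1 (0.923) and MEI1 (0.920) were the other named genes most like it. TAP2 had r of -0.51 with CD74. Without cortex_353 the r with B2M was 0.59 for DLA-79, 0.64 for DLA-DOA and 0.65 for DLA-DOB, so their low values rested on that library, and 0.06 for TAP2. Without it the r of TAPBP with B2M was 0.92 and that of DLA-DMA with CD74 0.90.

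Plasma EVs were a separate table with its own normalisation and another kind of library, so its levels are not tested against cortex. The 16 genes took 0.0263% to 0.056% of EV gene reads. DLA88 was at 43.2 to 87.4 normalised counts in young and 32.7 to 62.4 in old EVs, CD74 at 111 to 234 and 81.7 to 209, and DLA-DRA at 30.8 to 65.9 and 40.3 to 56.8. The activators CIITA and NLRC5 were at 414 to 684 and at 424 to 767 over the 12 EV libraries. On the scale of the other table, in cortex, they were at 5.71 to 50.9 and at 12.4 to 164. Of 629 olfactory receptor genes, which neither plasma nor brain is known for, 602 passed the filter on low values in EVs (95.7%) and 2 in cortex (0.318%). Passing the filter in EVs thus did not set a gene apart.

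One library of the CCD EVs stood apart. B2M was at 94, 245, 192 and 1485 in CCD EV_163, EV_354, EV_358 and EV_523. DLA88 was at 54.8, 37.4, 65.6 and 262, DLA-DRA at 29.4, 28.3, 32.8 and 153, and CD74 at 85.2, 72.1, 104 and 272 in the same libraries. EV_523 was the highest of all 12 EV libraries for each of these 4 genes. It was the lowest of the 12 for TAP1, TAP2 and DLA-DMA, at 115, 91.3 and 16.8. Its summed fibroblast and meningeal markers were 4419.6, against 1521 to 2138 in the other 11, and its microglia markers, at 1011, were the lowest; their part was not tested.

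**Figure D4:**
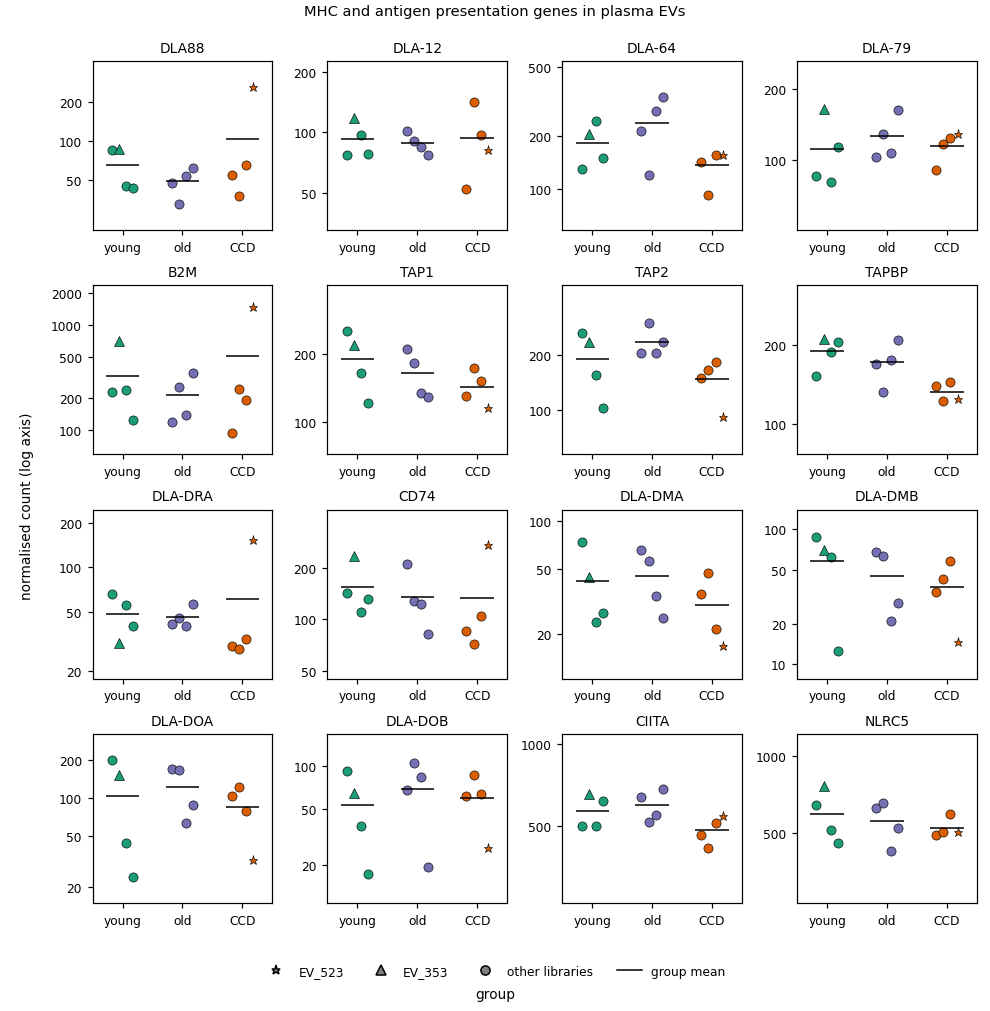
Normalised count (log axis) of each of the 16 genes in the 12 plasma EV libraries, by group; each point is a library, the line is the group mean, the star is CCD EV_523 and the triangle young EV_353. EV_523 is above all other libraries for DLA88, B2M, DLA-DRA and CD74, and for TAP2 all 4 CCD points lie below all 4 old ones.

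CCD EVs set against old EVs had lower TAP2 and DLA-64, at 0.611 and 0.606 times the old level, without passing the test. TAP2 was at 149, 166, 182 and 91.3 in the CCD libraries and at 204, 300.4, 205 and 236 in the old ones, which did not overlap. limma called 0 of the 16 and 0% of the 31728 genes tested, edgeR and DESeq2 called 0 and 0, and the smallest adjusted p was 0.777. Of the 16, 2 had an unadjusted p under 0.05, both lower, beside 1693 lower and 203 higher of all genes: TAP2 with -0.71 ± 0.31 and DLA-64 with -0.72 ± 0.32. All genes had a median of -0.27 here, and the 16 one of -0.17, with values from -0.72 for DLA-64 to 0.68 for DLA88. Only TAP2 had groups that did not overlap, lower in CCD, where 5.08% of all genes lay lower and 0.845% higher. DLA88 had 0.68 ± 0.51 and B2M 0.54 ± 0.71 with adjusted p of 0.782 and 0.842, and without EV_523 they had 0.10 and -0.25. DLA-DRA, CD74 and CIITA had 0.00 ± 0.48, -0.15 ± 0.40 and -0.30 ± 0.18.

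Old EVs set against young ones showed none of the 16 genes apart. Of the 16, 7 were positive and 9 negative with a median of -0.04, against 0.09 for all genes, and 0 had an unadjusted p under 0.05, beside 239 higher and 155 lower of all genes. limma called 0 of the 16 and 0% of all genes, as edgeR and DESeq2 called 0. Groups overlapped for all 16, where 0.514% of all genes lay higher and 0.403% lower in old. B2M had -0.42 ± 0.71, DLA88 -0.36 ± 0.51, CD74 -0.22 ± 0.40, DLA-DRA -0.03 ± 0.48 and CIITA 0.08 ± 0.18, each with an adjusted p of 1.

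In CCD against young EVs the tapasin gene TAPBP was lower, at 140.1, 122, 144 and 124 in CCD EV_163, EV_354, EV_358 and EV_523 against 153, 212, 189 and 205 in young EV_270, EV_353, EV_377 and EV_502. The groups did not overlap, and its log2 fold change was -0.51 ± 0.20 with an adjusted p of 1. It was the 1 gene of the 16 with an unadjusted p under 0.05, beside 861 lower and 43 higher of all genes, whose median was -0.17 against -0.19 for the 16. Over all genes 2.59% lay lower and 0.126% higher in CCD without overlap. limma called 0 of the 16 and 0% of all genes, edgeR called 0 and 0, and DESeq2 0 of the 16 and 1 of all genes. DLA88, B2M, CD74, DLA-DRA and CIITA had 0.32 ± 0.51, 0.11 ± 0.71, -0.37 ± 0.40, -0.03 ± 0.48 and -0.23 ± 0.18. Of the 53 pathway genes 51 could be tested in EVs and 0 were called. Those with an unadjusted p under 0.05 were MARCHF8, which marks class II molecules for removal (-0.55 ± 0.22), and NFYA (-0.97 ± 0.43) in CCD against old, and the proteasome activator PSME1 (-0.83 ± 0.38) in CCD against young.

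In EVs the genes most like B2M over 12 libraries were PPBP (0.911) and TMSB4X (0.894), then KCNMB2 (0.858), RPS19 (0.853) and LUZP6 (0.846). PPBP is a chemokine of platelets and is itself one of the 5 platelet markers. The 5 platelet markers together were at 977 in EV_523, the highest of the CCD EVs. They were at 626, 568 and 652 in CCD EV_163, EV_354 and EV_358. Old EV_519 at 1232 and young EV_353 at 1080.4 lay above EV_523, with B2M at 349.7 and 709 there. In CCD against old EVs 4 of them were negative and 1 positive, with a median of -0.40 against -0.27 for all genes. Their part in the level of B2M was not tested. Without EV_523 the r with B2M was 0.855 for PPBP and 0.839 for TMSB4X. It was lower for KCNMB2, RPS19 and LUZP6, at 0.685, 0.700 and 0.671. That of DLA-DRA with B2M went from 0.63 to 0.10 and that of DLA88 from 0.75 to 0.38. Those most like CD74 were IL17RE (0.891), WDR1 (0.881), MERTK (0.869), PPIA (0.869) and PSAP (0.864).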

How the data were processed

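Polyadenylated RNA was sequenced for cortex and total RNA for EVs, as pairs of 150 bp, per the labels' protocols. STAR and DESeq2 were used per the submitters' processing notes. Their versions, the build, the annotation and the counting rule are not given in the sources used. The signal per gene that the authors deposited, 1 table per tissue, is named normalized counts there. A factor per library turned 100% of values into whole reads (tolerance 0.01), which says little for cortex_353, whose factor is 1.01. The recovered reads gave depth and entered edgeR and DESeq2.

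The filter was a mean normalised count of 10 or more, which left 19010 in cortex and 31728 in EVs, and the 16 members passed it in each. log2(normalised count + 1) was fitted in R 4.3.3 with limma 3.58.1 over the 3 groups of a tissue, with Benjamini-Hochberg adjustment over all genes and a threshold of 0.05; folds are on that scale and understate low genes. Recovered reads were fitted with edgeR 4.0.16 and DESeq2 1.42.0. The limma fit was tested on simulated data. Counting error matters most for DLA-DOA and CIITA in cortex, which have few reads. RefSeq's UU_Cfam_GSD_1.0 table matched 16 of the 17 symbols and gave neighbours only.

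The members and lists were chosen with earlier results of these data known. Fold changes are named for members with an unadjusted p under 0.05 and always for B2M, CD74, DLA-DRA, DLA88 and CIITA, for up to 6 pathway genes a comparison by smallest p, and the 5 genes most alike for B2M and CD74. A pathway gene that this rule takes is not reported here.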

Additional observations from a re-analysis of the deposited data

Results flagged for a closer look

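Of 51 groups of 4 EV libraries, each a gene in a group, 5 held a library whose gap to its nearest neighbour took an unusually large part of the group's range (Dixon's test at 95%, by which chance flags about 1 in 20 groups). In CCD EVs, EV_523 was flagged at 1485 normalised counts for B2M, 262 for DLA88, 153 for DLA-DRA and 272 for CD74, with 0.892, 0.875, 0.964 and 0.842 of the range as the gap above the next library. EV_358 was flagged for NLRC5 at 593, with a gap of 0.862 of the range. These 4 flags of EV_523 are from 1 library and are not independent of each other.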

How the results depend on the processing

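Alternatives were a pseudocount of 5, no filter, a mean of at least 50, quantile normalisation, median centring, the compared groups alone, library weights, edgeR, DESeq2, each library left out and, added later, a fit without cortex_353, cortex_377 and cortex_358. No paired analysis was possible because groups within a tissue share no number. Of 42 fold changes named, 24 kept their sign in all alternatives run; no cause of the moves below was tested. CCD against old cortex gave 3 calls with the groups alone, 5 with weights and 4 without the 3 libraries, where the median was 0.29 and B2M -0.06; leaving out libraries singly gave medians of 0.29 to 0.88 and B2M of -0.06 to 0.80. Old against young cortex gave 2 calls by DESeq2 and 3 without the 3 libraries. CCD against young cortex gave 2 calls without them, with DLA88 at -0.23 and DLA-DRA at 0.08. There DLA88 was -0.12 by DESeq2 and edgeR and -0.36 with weights, CD74 -0.21 with weights, and CIITA 0.20 by DESeq2, 0.19 by edgeR, 0.08 centred, 0.00 at pseudocount 5 and 0.10 by quantiles. Leaving out 1 library gave DLA88 -0.55 to 0.72, B2M -0.85 to 0.01, DLA-DRA -1.05 to 0.12, CD74 -0.32 to 0.71 and CIITA -0.31 to 0.53.

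In EVs directions depended on scaling. CCD against old had medians of 0.05 by DESeq2, 0.06 by edgeR, -0.33 with weights, 0.09 centred and 0.05 by quantiles, and -0.27 to -0.05 with 1 library left out. CD74 was 0.34 by DESeq2 and edgeR, 0.11 centred and 0.01 by quantiles, and DLA-DRA -0.35 with weights; with 1 library left out CD74 was -0.56 to 0.08, B2M -0.25 to 1.07 and DLA-DRA -0.58 to 0.22. In old against young, CIITA was -0.03 by DESeq2, -0.04 by edgeR and -0.01 centred, and CD74 0.26 with weights; with 1 left out DLA-DRA was -0.22 to 0.14, B2M -0.79 to 0.05 and CD74 -0.45 to 0.00. In CCD against young, DLA-DRA was 0.64 by DESeq2, 0.62 by edgeR and 0.15 centred, CD74 0.07 by DESeq2 and edgeR, B2M -0.62 with weights and CIITA 0.00 by quantiles; with 1 left out DLA-DRA was -0.60 to 0.19, DLA88 -0.26 to 0.66 and B2M -0.68 to 0.64. Depth limits DLA-DOA and CIITA in cortex.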

Other observations

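The ratio of TAP1 to TAP2, whose products form 1 pump, was looked at after the values had been seen and is given with no test. It was 1.28, 2.07 and 1.72 in CCD cortex_163, cortex_354 and cortex_358, against 0.667 to 0.996 in old and 0.578 to 1.05 in young cortex. In EVs it was 0.839 to 1.26 in CCD, 0.548 to 1.03 in old and 0.935 to 1.2 in young libraries, so that the groups overlapped there.

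CD74 over B2M was 4.37 in CCD cortex_354 and 2.72 in CCD cortex_163, above the 0.854 to 2.48 of the other 7 cortex libraries. DLAT, the pyruvate dehydrogenase subunit set aside from the MHC genes, was at 602 to 881 normalised counts in CCD, 859.7 to 1276 in old and 751 to 1342 in young cortex, and at 95.1 to 143 over the 12 EV libraries. In EVs HLA-DRB1 was at 182 in EV_523 and at 181 in old EV_253, while its partner DLA-DRA was at 153 in EV_523 and at most 65.9 elsewhere.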
